A study of Cladosporium europaeum with 50 samples.

Results

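The genes described here make up the apparatus of gene expression after chromatin: ribosomal proteins, factors and enzymes of translation, RNA polymerase subunits and proteins that process RNA. They were chosen by words in their annotation (ribosom, tRNA, mRNA, translation, diphthamide, RNA polymerase, RRM, splic and a few others, leaving out transcription factors), and 33 of the 920 genes in the authors' lists of changed genes matched, from 705 with an annotation. The study grew mycelium of the soil fungus Cladosporium europaeum F32 in mineral medium with 5 g/L glucose, either without a polychlorinated biphenyl (PCB) or with 6 mg/L of 1 congener, and sequenced polyadenylated RNA at 24 h and 96 h. At each time there was a control group (0 mg/L PCB), and groups with PCB52, PCB101, PCB153 or PCB180, and the labels give 5 replicates, A to E, in each of the 10 groups. The congeners form a series in which each carries the chlorines of the one before and a further chlorine: from PCB52, with the fewest (a tetrachlorobiphenyl), through PCB101 (penta-) and PCB153 (hexa-) to PCB180 (hepta-).

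A fungal cell makes protein with separate ribosomes in the cytosol and in the mitochondria. The cytosolic ribosome consists of 40S and 60S subunits, whereas the mitochondrial ribosome is related to the 30S and 50S subunits of bacteria, makes a handful of respiratory chain proteins, and has its own proteins, nearly all encoded in the nucleus and imported. RNA polymerases I and III make ribosomal and transfer RNA, RNA polymerase II makes messenger RNA, and messenger RNA is spliced and cleaved at its 3' end before export.

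The authors compared exposed groups with the control of the same hour. The values are those of their tests: a log2 fold change with its standard error (SE), and a p adjusted across genes. Values were given for 7 such comparisons. PCB101 at 24 h had none, so whether that comparison was made is not known. The tables hold only genes that the authors listed as changed, which in comparisons with control means an adjusted p under 0.05 together with a log2 fold change of 1 or more in either direction. "Rose" and "fell" are used for listed genes only. Because each member had to be listed to be seen, the counts below cannot show what share of all ribosomal or RNA processing genes of the fungus responded, and a member with no value for a congener is not shown to be unchanged. No values per sample were used here, so the spread between replicates is seen only through the standard errors. The labels do not say whether replicates were separate cultures, so the p-values measure the spread between these samples, which may be technical. The mean normalized count of the members lay between 37.3 and 15822, with 744 at the median, by the authors' deposited table.

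None of the 33 members was listed at 24 h, when the authors' deposited table holds 1 gene for PCB52 (0.00884% of the 11313 genes behind the adjustment), 6 for PCB153 (0.053%) and 2 for PCB180 (0.0177%). At 96 h the authors' deposited table listed 1 member for PCB52, where 0.00884% of genes were listed, and 1 for PCB101, where 0.0796% were listed. PCB153 had 18 members in a list that took 2.4% of 10874 genes, and PCB180 had 30 in a list that took 7.26% of 11313 genes, in the authors' deposited table. Under PCB153 17 of the 18 members rose, or 94.4%, against 75.9% of all genes listed for that congener in the authors' deposited table. Under PCB180 26 of 30 rose, or 86.7%, against 63.2% of all listed genes in the authors' deposited table. The sizes of the rises were close to those of listed genes at large: the median log2 fold change of the genes that rose was 1.65 for the members and 1.68 for all listed genes under PCB153, and 1.54 and 1.59 under PCB180, by the authors' deposited table.

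**Figure D1:**
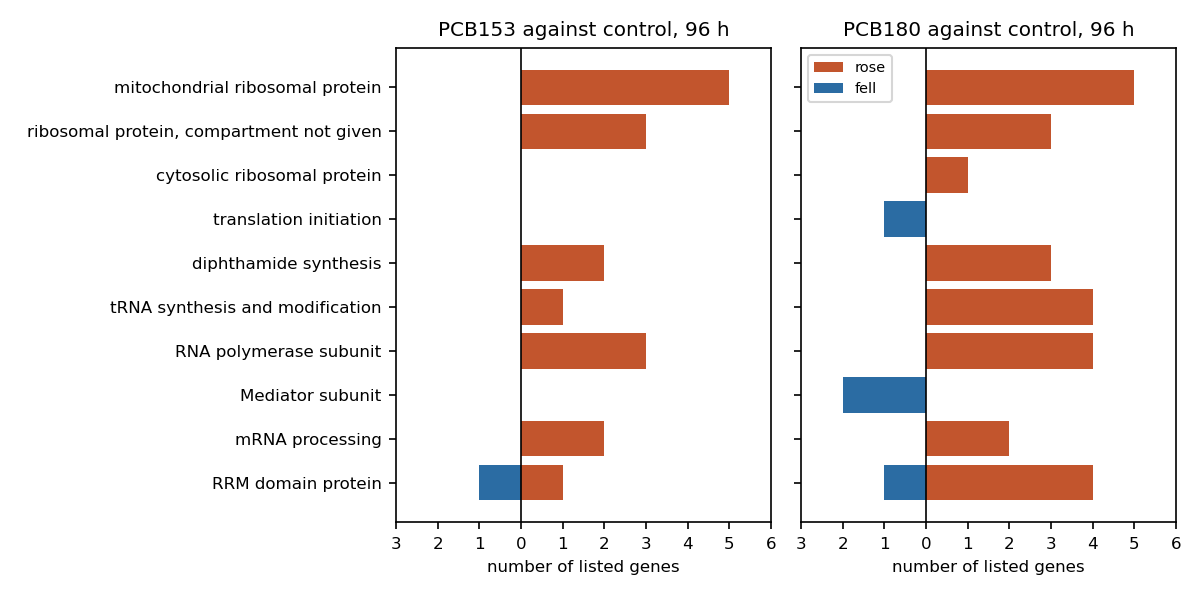
Number of listed members that rose (right of 0) or fell (left of 0) against control at 96 h, by functional class, for PCB153 and PCB180. Ribosomal proteins, diphthamide proteins, tRNA enzymes, RNA polymerase subunits and mRNA processing proteins lie to the right only, with 5 mitochondrial ribosomal proteins in each panel, and the Mediator subunits and the initiation factor lie to the left.

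Ribosomal proteins formed the largest class, with 12 genes. All 8 listed for PCB153 and all 9 listed for PCB180 rose, with median log2 fold changes of 1.62 and 1.68, computed from the authors' deposited table. By their names 7 were mitochondrial, 4 had a bacterial-type or shared-domain name that does not give the compartment, and 1 was cytosolic. None of the 12 was listed for PCB52 or PCB101, whose lists at 96 h held 1 gene (0.00884%) and 9 genes (0.0796%) of 11313.

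The mitochondrial set held proteins of both subunits. The large subunit protein bL33m (ptg000021l.537) had the highest value of any ribosomal protein, with a log2 fold change of 2.19 ± 0.60 (SE) under PCB153 and 2.48 ± 0.63 under PCB180 in the authors' deposited table. These values correspond to 4.55-fold (95% interval 2.02 to 10.3) and 5.58-fold (2.36 to 13.2) higher RNA. The small subunit protein mS33 (ptg000010l.315), which has no bacterial counterpart, had 1.90 ± 0.52 and 1.68 ± 0.54, and bS6m (ptg000016l.68), also of the small subunit, 1.35 ± 0.42 and 1.39 ± 0.44, for PCB153 and PCB180 in the authors' deposited table. These 3 genes were the mitochondrial ribosomal proteins listed for both congeners.

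The other 4 mitochondrial genes were listed for 1 congener each. Large subunit protein uL14m (ptg000003l.16) rose by 1.25 ± 0.41 under PCB180, at an adjusted p of 0.0286, per the authors' deposited table. Large subunit protein mL58 (ptg000027l.479) rose by 1.0 ± 0.28 under PCB180, next to the fold threshold of the list, in the authors' deposited table. One of its annotations calls it 60S protein L20, a cytosolic name, while the others give it as 54S protein L20 of mitochondria. A protein with the N-terminal domain of bL31m (ptg000006l.334) rose by 1.05 ± 0.32 under PCB153 (adjusted p = 0.0413), and the protein named mitochondrial S36 (ptg000018l.499) by 1.21 ± 0.38 (adjusted p = 0.0483), in the authors' deposited table. In yeast the protein of that last name is known as a subunit of the 2-oxoglutarate dehydrogenase complex rather than of the ribosome. Without it, 4 mitochondrial ribosomal proteins rose under PCB153 and 5 under PCB180.

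Of the 4 genes with no compartment in their name, 3 carry the names of bacterial 30S proteins. Protein uS19 (ptg000003l.671), of the head of the small subunit, had a log2 fold change of 1.77 ± 0.46 under PCB153 and 1.94 ± 0.48 under PCB180 in the authors' deposited table. Protein uS13 (ptg000015l.361), also of the head, had 1.81 ± 0.46 and 1.74 ± 0.49 under these congeners in the authors' deposited table. Protein uS12 (ptg000003l.639), which lies at the decoding centre, was listed for PCB180 only, at 1.20 ± 0.36 and an adjusted p of 0.0159, per the authors' deposited table. The fourth gene (ptg000005l.825) has a domain found both in mitochondrial ribosomal proteins and in a subunit of respiratory complex I, and rose by 1.47 ± 0.47 under PCB153 (adjusted p = 0.0483) in the authors' deposited table.

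Cytosolic ribosomal proteins were represented by 1 gene with an uncertain name. The gene ptg000015l.603 is annotated both as 40S protein S3 and as the terpene cyclase PaxB, an enzyme of a fungal indole diterpene pathway. It rose by 2.08 ± 0.62 under PCB180, at an adjusted p of 0.0166, per the authors' deposited table. By name the lists therefore held 7 mitochondrial ribosomal proteins and 1 cytosolic one. Leaving out the names in doubt on both sides (mL58 and S36, and 40S protein S3), a choice made after the data were seen, 5 mitochondrial and 0 cytosolic ones were left. How many genes of either kind were measured and not listed is not known from these tables, so no difference between the 2 ribosomes was tested.

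**Figure D2:**
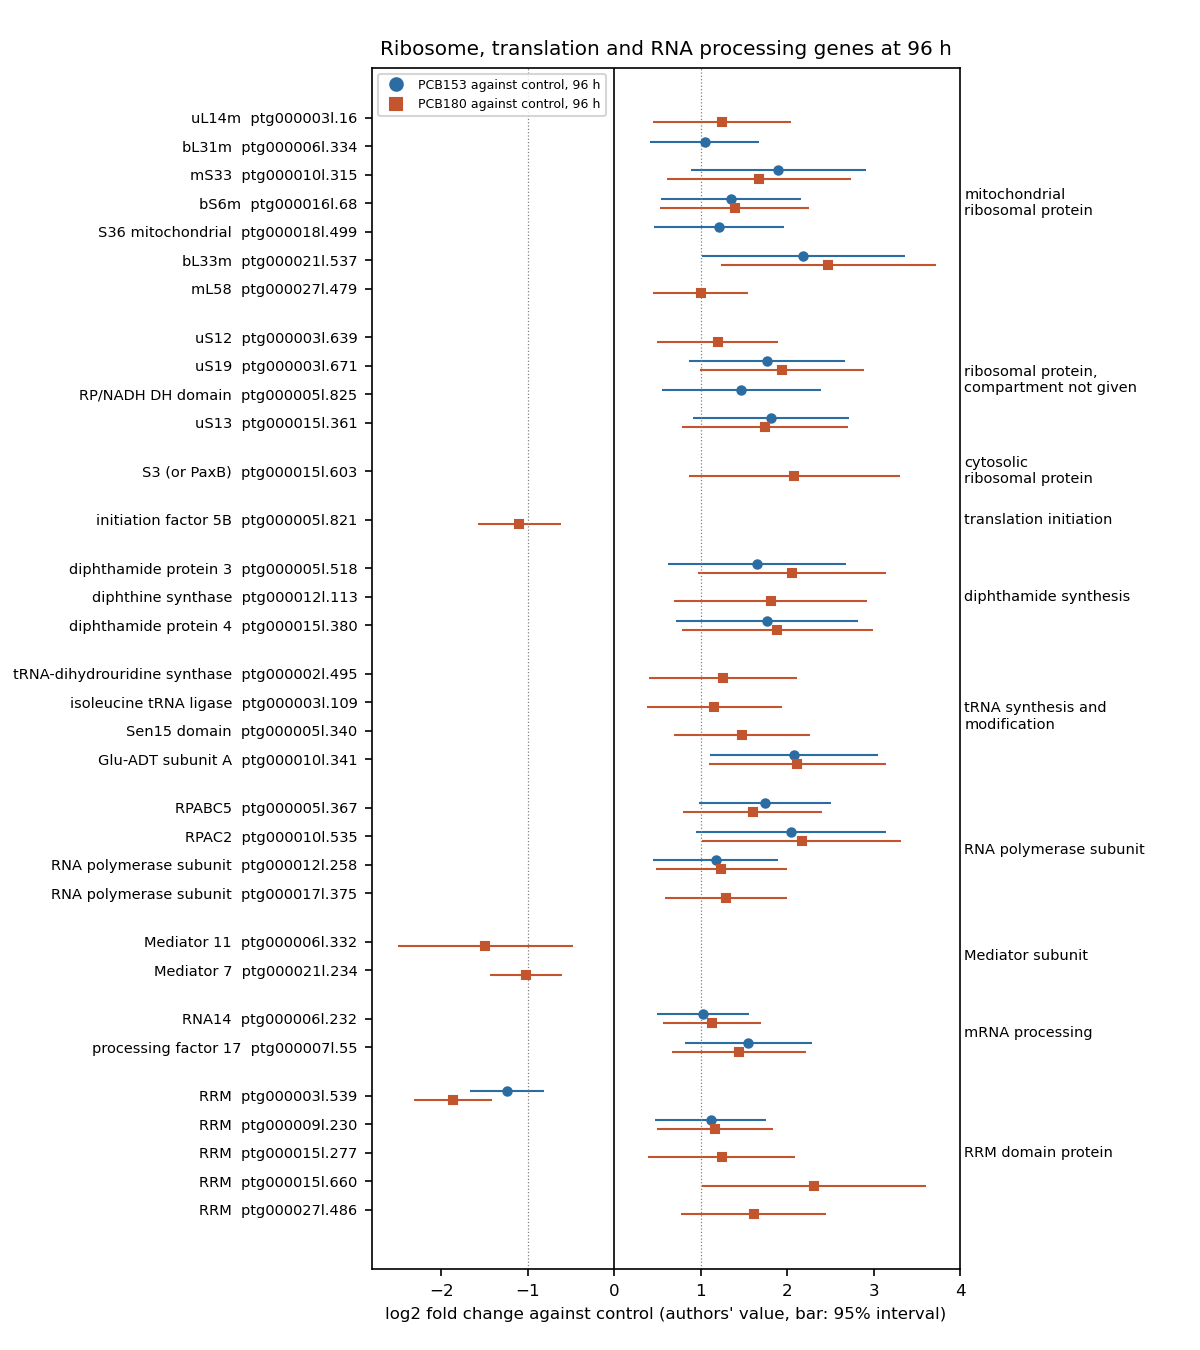
Log2 fold change against control at 96 h for each of the 33 members, by class, for PCB153 (circles) and PCB180 (squares); bars are 95% intervals from the authors' standard errors, dotted lines mark the fold threshold of 1, and a missing symbol means that the gene was not listed. All 12 ribosomal proteins lie right of 0, and 4 of the 33 members (initiation factor 5B, both Mediator subunits and 1 RRM protein) lie left of it.

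All 3 listed proteins of diphthamide synthesis rose. Diphthamide is a modified histidine of elongation factor 2, the factor that moves the cytosolic ribosome along its messenger RNA. Diphthamide biosynthesis protein 3 (ptg000005l.518), an electron carrier for the initial step of the pathway, rose by 1.65 ± 0.53 under PCB153 and 2.06 ± 0.55 under PCB180 in the authors' deposited table. Diphthamide biosynthesis protein 4 (ptg000015l.380), a J-domain protein of the same step, rose by 1.77 ± 0.54 and 1.89 ± 0.56 in the authors' deposited table. Diphthine methyl ester synthase (ptg000012l.113), the methyltransferase of the next step, rose by 1.81 ± 0.57 under PCB180, at an adjusted p of 0.0227, per the authors' deposited table. These rises are 3.14-fold to 4.17-fold. For PCB153 the adjusted p of proteins 3 and 4, 0.0485 and 0.0349, lay near the threshold of the authors' deposited table.

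The listed translation factor went the other way. Eukaryotic initiation factor 5B (ptg000005l.821), a GTPase that joins the ribosomal subunits at the end of initiation, fell by 1.09 ± 0.25 on the log2 scale under PCB180, to 46.8% of control, at an adjusted p of 0.00088, per the authors' deposited table. It is also annotated with the name of the bacterial factor IF-2.

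All 4 listed proteins that act on transfer RNA rose. Glutamyl-tRNA(Gln) amidotransferase subunit A (ptg000010l.341) belongs to an enzyme that, in yeast mitochondria, completes the charging of the glutamine tRNA. Its log2 fold change was 2.08 ± 0.49 under PCB153 and 2.12 ± 0.52 under PCB180, and it had the highest mean normalized count of the members, 15822, in the authors' deposited table. A protein with the domain of Sen15 (ptg000005l.340), a subunit of the endonuclease that removes introns from pre-tRNA, rose by 1.48 ± 0.40 under PCB180 in the authors' deposited table. A tRNA-dihydrouridine synthase (ptg000002l.495), which reduces uridines of the tRNA, rose by 1.26 ± 0.44 (adjusted p = 0.0428) and isoleucine tRNA ligase (ptg000003l.109), which charges tRNA with isoleucine, by 1.16 ± 0.40 (adjusted p = 0.0392), both under PCB180 in the authors' deposited table. The amidotransferase subunit was thus the only tRNA enzyme in the lists of both congeners. Of all genes listed for PCB180, 79.2% were likewise not listed for PCB153.

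The 4 listed RNA polymerase subunits rose, 3 of them under both congeners, and the 2 listed Mediator subunits fell, under PCB180 only. Over all listed genes, 75.9% rose under PCB153 and 63.2% under PCB180. RPAC2 (ptg000010l.535), a subunit shared by RNA polymerases I and III, rose by 2.04 ± 0.56 under PCB153 and 2.17 ± 0.59 under PCB180 in the authors' deposited table. RPABC5 (ptg000005l.367), shared by all nuclear RNA polymerases, rose by 1.75 ± 0.39 and 1.60 ± 0.41, with adjusted p of 0.00156 and 0.004 in the authors' deposited table. Subunits annotated only as part of a DNA-directed RNA polymerase rose by 1.18 ± 0.37 and 1.24 ± 0.39 (ptg000012l.258, PCB153 and PCB180) and by 1.29 ± 0.36 (ptg000017l.375, PCB180) in the authors' deposited table.

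Mediator links regulators to RNA polymerase II and entered the set through the words RNA polymerase in its name. Under PCB180 its subunit 11 (ptg000006l.332) fell by 1.49 ± 0.52, with an adjusted p of 0.0414, per the authors' deposited table. Its subunit 7 (ptg000021l.234) fell by 1.02 ± 0.21, with an adjusted p of 0.00019, per the authors' deposited table. Subunit 11 had the less certain value of the pair, with a mean normalized count of 108 in the authors' deposited table.

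Both listed proteins of messenger RNA processing rose under both congeners. RNA14 (ptg000006l.232), of the factor that cleaves the 3' end of messenger RNA for polyadenylation, rose by 1.03 ± 0.27 under PCB153 and 1.13 ± 0.29 under PCB180 in the authors' deposited table. Pre-mRNA-processing factor 17 (ptg000007l.55), which acts late in splicing, rose by 1.55 ± 0.37 and 1.45 ± 0.40 in the authors' deposited table.

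The 5 proteins known only by an RRM domain, which binds RNA, split by direction. Under PCB180 4 rose, led by ptg000015l.660 at 2.31 ± 0.66 and ptg000027l.486 at 1.61 ± 0.43 in the authors' deposited table. The other two that rose had 1.24 ± 0.43 (ptg000015l.277) and 1.16 ± 0.34 (ptg000009l.230), and the latter also rose under PCB153, by 1.11 ± 0.32, in the authors' deposited table. The gene ptg000015l.277 had a mean normalized count of 37.3, the lowest of the members, in the authors' deposited table.

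The remaining RRM protein (ptg000003l.539) fell under every congener at 96 h and was the only member listed for PCB52 or PCB101. Its level was 46.7% of control under PCB52, 45.4% under PCB101, 42.3% under PCB153 and 27.5% under PCB180, computed from the authors' deposited table. Under PCB180 its adjusted p was 2.74e-12, the smallest of any member in the authors' deposited table. Since the 96 h control serves all 4 comparisons, the falls against control are not independent of each other, but the control drops out of the difference between a pair of congeners. With a two-sided normal test of that difference on the authors' standard errors (correlation of 0.5 for the shared control), the fall under PCB180 exceeded that under PCB52 by 0.76 on the log2 scale (difference -0.76, 95% interval -1.20 to -0.32, p = 0.000699), and no other gene was listed for this pair. It exceeded that under PCB101 by 0.72 (difference -0.72, interval -1.16 to -0.28, Benjamini-Hochberg adjusted p = 0.00925 from the authors' standard errors). The adjustment for that pair covered 7 genes. Against PCB153 the difference was -0.62 (interval -1.06 to -0.18), which did not pass, at an adjusted p of 0.208 over 171 genes. With adjustment over the 190 combinations of gene and pair, neither of the first differences passed (adjusted p = 0.0812 for both, from the authors' standard errors). Among PCB52, PCB101 and PCB153 the differences were between -0.14 and -0.04, with intervals reaching from -0.57 to 0.39, and none passed.

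**Figure D3:**
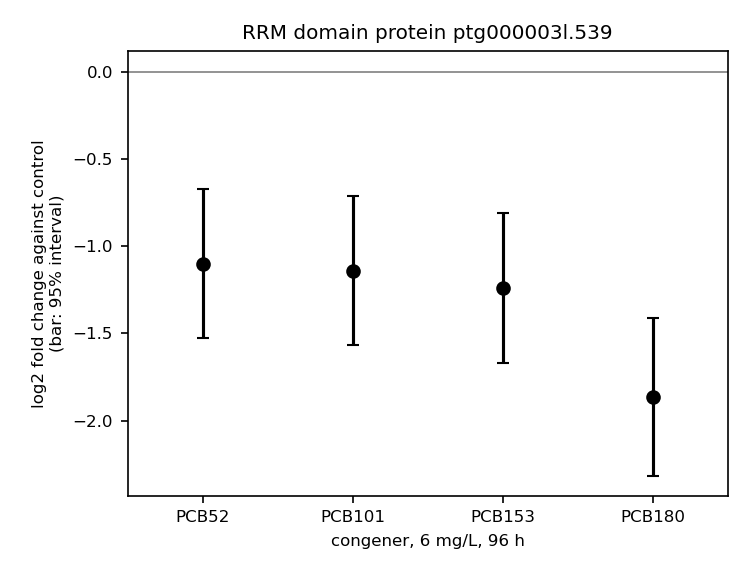
Log2 fold change of the RRM domain protein ptg000003l.539 against the shared control at 96 h, by congener in order of chlorine number; points are the authors' values and bars 95% intervals from their standard errors. The 3 congeners with fewer chlorines lie between -1.24 and -1.10, and PCB180 lies at -1.86.

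The design also sets PCB180 against PCB153 at the same dose and time, congeners that differ by 1 chlorine. The authors' own direct comparison, by their deposited table, listed 1 of 11313 genes (0.00884%), and it was not a member. Of the members, 15 were listed for both congeners, which is 83.3% of the 18 for PCB153 and 50.0% of the 30 for PCB180. Over all listed genes, 171 were in both lists, or 65.5% of the 261 for PCB153 and 20.8% of the 821 for PCB180 in the authors' deposited table. Both lists rest on the same control samples, and no test of the overlap was made. These 15 had the same direction under both, which is a property of 171 of the 171 genes listed for both. The difference of the 2 log2 fold changes was computed for all 171, and 0 passed a Benjamini-Hochberg adjusted p of 0.05 (0% called), while 18 genes, 1 of them a member, had an unadjusted p under 0.05 by the same normal test. That member was the RRM protein ptg000003l.539.

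For the 14 members that rose under both, the difference PCB180 minus PCB153 lay between -0.22 (mS33) and 0.41 (diphthamide biosynthesis protein 3), with a median of 0.06. Their 95% intervals reached from -1.26 to 1.5, with half-widths from 0.55 to 1.21 on the log2 scale and 0.93 at the median. The half-width was under 1 for 9 of the 14 and over 1 for the other 5. A difference smaller than about 0.55 could therefore not pass for any of them even before adjustment. Adjustment over genes asks for a larger difference than that. For bL33m the interval was -0.92 to 1.5, and for RNA14, the narrowest of those that rose, -0.45 to 0.65. Passing the same fold threshold in both comparisons was a condition for being tested, which limits how far apart the values could lie.

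**Figure D4:**
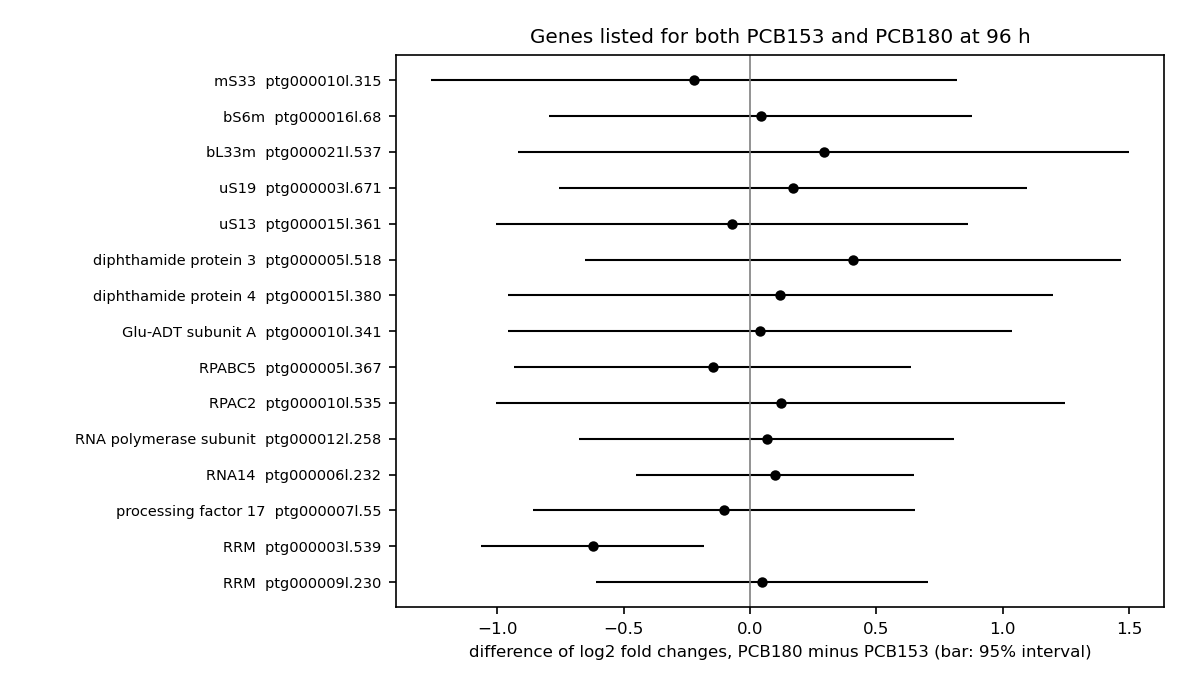
Difference of the log2 fold changes, PCB180 minus PCB153 at 96 h, for the 15 members listed for both; points are differences and bars 95% intervals with a correlation of 0.5 for the shared control. The intervals of 14 genes include 0, and that of the RRM protein ptg000003l.539 does not (-1.06 to -0.18) before adjustment.

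Most of the members listed for 1 congener had only a PCB180 value. For PCB153 alone 3 members were listed, all near the threshold, with adjusted p from 0.0413 to 0.0483 by the authors' deposited table, and 15 were listed for PCB180 alone. These are 16.7% and 50.0% of the members in each list, where 34.5% of all genes listed for PCB153 (90) and 79.2% of those listed for PCB180 (650) were in 1 of these 2 lists only, by the authors' deposited table. The longer PCB180 list also admitted larger unadjusted p-values, up to 0.0051 against 0.00177 for PCB153 in the authors' deposited table. With the PCB153 ceiling applied to both, a choice made after the data were seen, 24 of the 30 PCB180 members were left, 10 of them not listed for PCB153, and 579 of all 821 genes were left. Mitochondrial ribosomal proteins that rose under PCB180 then numbered 3 in place of 5.

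The standard errors at 96 h were also compared between congeners. For the 171 genes listed for both congeners the SE of PCB180 was 1.05 times that of PCB153 at the median, and for the 47 genes with a mean normalized count of at least 1000 the ratio ran from 1.0537 to 1.0573, by the authors' deposited table. For the 15 members it was 1.0536 to 1.0567, whereas the ratio of PCB101 to PCB153 over 9 genes was 1 at the median. If the SE of well-counted genes follows the group sizes alone, equal groups of 5 give a ratio of 1, and 4 control, 4 PCB180 and 5 PCB153 samples give 1.0541. These sizes were picked from groups of 2 to 5 samples as the closest to this ratio and 1 other. The other is the SE of the direct comparison over that of PCB180 against control, where these sizes give 0.949. The only gene with both values had 0.947. Because the sizes were fitted to both ratios, neither match is a check of them. Sizes of 2 control, 3 PCB180 and 4 PCB153 samples also give 1.0541, and give 0.837 for the other ratio. The cause of the ratio of 1.05 was not tested. The number of samples in each comparison is not given in the sources used here, so the values above are printed without an n.

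**Figure D5:**
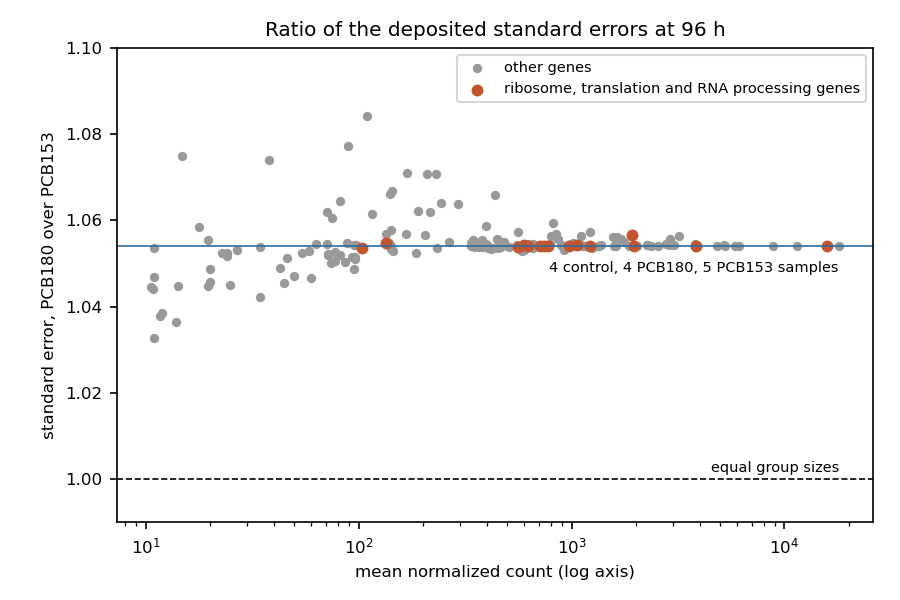
SE of the log2 fold change for PCB180 divided by that for PCB153 at 96 h, against mean normalized count on a log axis, for the 171 genes listed for both, with the 15 members in colour. At high counts the ratios lie near 1.0541 (solid line, the value for 4 control, 4 PCB180 and 5 PCB153 samples). Those sizes were fitted to the ratios and are not given by the labels. The dashed line marks 1, the value for equal groups.

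Further genes that the words of the rule do not reach were collected by a list of other words for RNA metabolism. It also took in genes whose names do not tie them to RNA. Under PCB180 8 of 11 such genes rose and 3 fell, and under PCB153 1 rose, in the authors' deposited table, where 63.2% and 75.9% of all listed genes rose. Nucleolar protein 12 (ptg000017l.402), in yeast a factor of large subunit ribosomal RNA maturation, rose by 1.43 ± 0.26 at an adjusted p of 1.68e-05, per the authors' deposited table. LSm1 (ptg000005l.254), of the cytoplasmic ring that promotes messenger RNA decay, rose by 1.52 ± 0.47, a protein with an RNase III domain (ptg000019l.4) by 2.24 ± 0.56, and a pseudouridine synthase (ptg000017l.267) by 1.03 ± 0.35, all under PCB180 in the authors' deposited table. The 3 genes that fell were a DNA helicase and 2 proteins with a helicase domain, whose names do not tie them to RNA. The gene listed for PCB153 (ptg000017l.1) is also a DNA helicase. It is 1 of the 8 that rose under PCB180, by 1.87 ± 0.66 (adjusted p = 0.0477), per the authors' deposited table. Another of the 8, ptg000017l.130, is annotated as endoribonuclease L-PSP and also as a chorismate mutase-like and a YjgF-like protein. It rose by 2.05 ± 0.64 at a mean normalized count of 14.2, in the authors' deposited table. By the authors' deposited table, 6 of 7 further mitochondrial genes rose and 1 fell under PCB153, and 4 rose and 4 fell under PCB180. Among them TIM14 (ptg000009l.107), of the motor that pulls proteins into the matrix, rose by 1.87 ± 0.50 and 1.83 ± 0.52 under PCB153 and PCB180 in the authors' deposited table. One of the 4 that fell under PCB180, ptg000018l.78, is an NADH-cytochrome b5 reductase also named microsomal. It fell by 2.02 ± 0.45 in the authors' deposited table, and its name does not place it in mitochondria.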

How the data were processed

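Samples were grouped by their titles, into 10 groups of 5. TRIzol RNA and polyA libraries were used, per the labels' protocols; aligner, counter, test program, genome build and annotation: not given in the sources used here. Per the file headers, the deposited values are log2 fold changes with standard errors (also on the log2 scale), a score (log2 fold change over its standard error), p-values unadjusted and adjusted, and, as a signal, the mean normalized count, which the authors give once per gene. Depth per sample is unknown.

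The members and lists were chosen with earlier results of these data known. The 33 members were assigned to 10 classes by annotation text alone. The number of genes behind an adjustment was taken to be the whole number that makes the most ranks whole (tolerance 0.0001). At 96 h these were 148 of 261 ranks for PCB153 and 548 of 821 for PCB180. In each comparison that lists 1 gene, 3 numbers did equally well and 11313 was 1 of them, so the shares printed there rest on that choice. Differences between congeners used a two-sided normal test with a correlation of 0.5 for the shared control. Benjamini-Hochberg adjustment covered all genes listed for the pair. Both steps were tested on simulated data. For the difference test those data had equal standard errors, a built-in correlation of 0.5 and no limit to listed genes. How the test behaves on genes chosen by being listed was not tested. Every ribosomal protein, every member listed at least 2 times, and the 6 largest rises and falls per comparison were to be named; in the end all 33 members were. The word search for PIN domains was limited to whole words, to leave out cupins. Alternatives were stricter p and fold thresholds, a filter on counts, narrower membership and other correlations. Python 3.11.15, pandas 2.3.3, NumPy 2.4.6 and SciPy 1.17.1 were used.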

Additional observations from a re-analysis of the deposited data

Results flagged for a closer look

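The RRM domain protein ptg000003l.539 differed between congeners at 96 h by a test of the difference itself. Its log2 fold change was lower under PCB180 than under PCB101 (difference -0.72) and than under PCB52 (difference -0.76). Both differences failed with adjustment over every pair of congeners together (adjusted p = 0.0812 from the authors' standard errors). The one from PCB101 also failed with a correlation of 0 (adjusted p = 0.119) or 0.25 (0.0506) between the comparisons. The one from PCB52 passed at each correlation tried, but 1 gene was tested for that pair, so its p was not adjusted over genes.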

How the results depend on the processing

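No paired analysis was possible because the tables hold no values per sample, and for the same reason no replicate could be left out in turn. Counts of members that rose were 17 under PCB153 and 26 under PCB180. They became 4 and 13 at an adjusted p under 0.01, 10 and 13 at a log2 fold change of 1.5 or more in size, and 3 and 6 at 2. In both directions together, 5 of 18 and 16 of 30 members had an adjusted p under 0.01 in the authors' tests. Of all listed genes, 37.5% of 261 for PCB153 and 46.8% of 821 for PCB180 did. Members that fell, 1 and 4, became 0 and 1 at 1.5, and 0 and 0 at 2; the 1 for PCB153 became 0 without genes matched only by RRM or mRNA, and the 4 for PCB180 became 2 without the Mediator subunits and the genes with conflicting annotations. Mitochondrial ribosomal proteins that rose, 5 and 5, became 0 and 2 at an adjusted p under 0.01, 2 and 2 at 1.5, 1 and 1 at 2, and 3 for PCB180 under the common p ceiling. Ribosomal proteins with no compartment in their name, 3 and 3, became 1 for PCB153 at an adjusted p under 0.01, and 0 and 0 at 2; the cytosolic one under PCB180 became 0 at an adjusted p under 0.01. The other 47 alternative counts stayed within 1.5 times. Among them were the 0 genes whose difference between PCB180 and PCB153 passed, at correlations of 0, 0.25, 0.5 and 0.527 and with adjustment over all pairs. The correlation of 0.527 was added after the data were seen, from the closest-fitting group sizes above. Of 80 alternative tests of single members between congeners, 76 stayed on the same side of the threshold, and the other 4 concern ptg000003l.539. Depth per sample was not known, and the width of the intervals limits what could be told apart.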

Other observations

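Protein folding and turnover, which follow translation, had 5 listed genes at 96 h. Under PCB153 1 rose and 1 fell, and under PCB180 2 rose and 2 fell, in the authors' deposited table. Proteasome assembly chaperone 3 (ptg000002l.94) fell under both congeners, by 1.19 ± 0.34 on the log2 scale for PCB153 and 1.47 ± 0.37 for PCB180, in the authors' deposited table. A subunit of the proteasome regulatory particle (ptg000019l.117) rose by 1.42 ± 0.50, at an adjusted p of 0.0469, and a J-domain cochaperone of the endoplasmic reticulum (ptg000006l.77) by 1.99 ± 0.59, both under PCB180 in the authors' deposited table. A chitin synthase export chaperone (ptg000002l.429) fell by 1.27 ± 0.30 under PCB180, at an adjusted p of 0.00163, per the authors' deposited table. The mitochondrial chaperone BCS1 (ptg000011l.102), which inserts an iron-sulfur protein into respiratory complex III, rose under PCB153, by 1.69 ± 0.46, per the authors' deposited table. It is also counted among the further mitochondrial genes above.

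Under PCB180 the median SE was 0.44 for the 26 members that rose, with a range of 0.28 to 0.66, and 0.24 for the 4 that fell, with a range of 0.21 to 0.52 that overlaps the first, at median mean normalized counts of 727 and 1107, in the authors' deposited table. Over all genes listed for PCB180 the medians were 0.46 for those that rose and 0.35 for those that fell, and over those listed for PCB153 0.45 and 0.32, in the authors' deposited table.

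The 33 members lay on 14 contigs, and no 2 of them had consecutive gene numbers. The closest pair, Mediator subunit 11 (ptg000006l.332) and the bL31m domain protein (ptg000006l.334), was 2 numbers apart, and each was listed for a different congener and in a different direction.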
